A study of Mus musculus with 3 samples.

Results

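The glutathione S-transferase genes examined here were Gsta1, Gsta3, Gsta4, Gstm1, Gstm2, Gstm5, Gstp1, Gstt1, Gsto1 and Mgst1 in mouse C3H10T1/2 cells treated with hexavalent chromium, Cr(VI). A probe was taken where the array file gave 1 of these 10 symbols as its gene, which found 14 of 41167 probes (10 of 27724 gene names). Gsta3, Gstm1, Gstp1 and Mgst1 had 2 probes each and the other 6 genes had 1. C3H10T1/2 is an established line of fibroblast-like cells from mouse embryos. One group was untreated, 1 received 1 uM Cr(VI) and 1 received 0.01 uM Cr(VI). Treated cells were exposed for 48 h, starting 24 h after 2000 cells had been seeded in each 25 cm2 flask, and were then washed and grown in Cr(VI)-free medium until day 15, when RNA was taken. Each group had 3 flasks and 1 array, and pooling of the RNA across flasks is not stated. With 1 array in each group there was no spread between cultures and no test, so every comparison below is between 2 single arrays.

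Glutathione S-transferases join the tripeptide glutathione to electrophilic compounds, which marks them for export from the cell. The soluble enzymes fall into classes named alpha, mu, pi, theta and omega, and the microsomal enzymes are membrane proteins of a separate lineage with related activity. Many of the soluble genes are targets of the transcription factor NRF2, which binds antioxidant response elements, and glutathione itself takes part in the reduction of Cr(VI) inside cells.

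Levels are log2 signal relative to the 75th percentile of all probes on the same array, so 0 is that percentile. A difference is the level at a dose minus the untreated level unless another pair is named, and a fold of 2 is a difference of 1. The error given with a difference is the standard error (SE) that the scanner software's error model assigns to the spots. It is technical and leaves out variation between cultures. A spot is saturated where the scanner reached its ceiling, so a fold that rests on a saturated brighter spot is a lower bound.

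Detection reached 41.8% of probes without Cr(VI), 36.4% at 0.01 uM and 41.5% at 1 uM, counting probes well above background, and all 14 probes were well above background on all 3 arrays. Between replicate spots of 1 probe on 1 array, the median SD of log2 signal lay between 0.056 and 0.061. Its 95th percentile lay between 0.18 and 0.22. These figures cover the 107 to 117 detected, unsaturated probes with at least 8 spots. Of the members, only Gsta4 had more than 1 spot. Of 10 fibroblast markers, 10 were detected in untreated cells, 10 at 0.01 uM and 9 at 1 uM. The marker lost at 1 uM was Thy1, a fibroblast surface glycoprotein, with levels of 2.84 untreated, 3.41 at 0.01 uM and -3.56 at 1 uM. The summed fibroblast level was 9.33, 9.66 and 8.87 on the log2 scale in that order. Among its brightest markers, Col1a1, Col1a2 and S100a4 were saturated on the untreated and 1 uM arrays, and Fn1 on the untreated array. The sum is therefore no measure of change. Liver markers were at background on every array (0 of 5), and 2 of 6 macrophage and blood markers (Cd68 and Lyz2) were detected on each. Krt19 (1 of 5 epithelial markers) and Cdh5 (1 of 4 endothelial markers) were detected at 1 uM and on neither other array. Among 4 adipocyte markers only Fabp4 was detected, at 4.56, 4.62 and 2.17 untreated, at 0.01 uM and at 1 uM. In bulk RNA, fewer cells of a type and less RNA per cell cannot be told apart. The part of these marker changes in the results below was not tested.

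At 1 uM Cr(VI), 1 of the 14 probes was at least 2-fold higher than untreated and 5 were at least 2-fold lower. The background over all 18098 probes was 5.4% in the higher direction and 4.71% in the lower. At 1.5-fold the counts were 2 higher and 8 lower, against 13.9% and 13.8% of all probes. The probe at least 2-fold higher was that of Gsta1. Those at least 2-fold lower were both of Gstm1, the 1 of Gstm2 and both of Mgst1. By gene, on the brightest probe of each, 1 of 10 was higher and 3 of 10 lower, against 5.67% and 4.86% of 12452 genes. Of the 12 probes with a measured difference, 4 were above 0, against 47.3% of all probes measured. The median of the 12 was -0.69, against -0.03 over all probes measured. The 12 ran from -1.82 to 1.04 with SEs of 0.20 to 0.24, and 9 lay more than 2 SE from 0. The share of all probes beyond 2 SE was not computed, so the 9 have no background beside them. The other 2 probes, the first of Gstm1 and the first of Gstp1, were limited by saturation. These counts describe the genes chosen, and several of them share a chromosomal cluster or are probed by more than 1 probe.

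**Figure D1:**
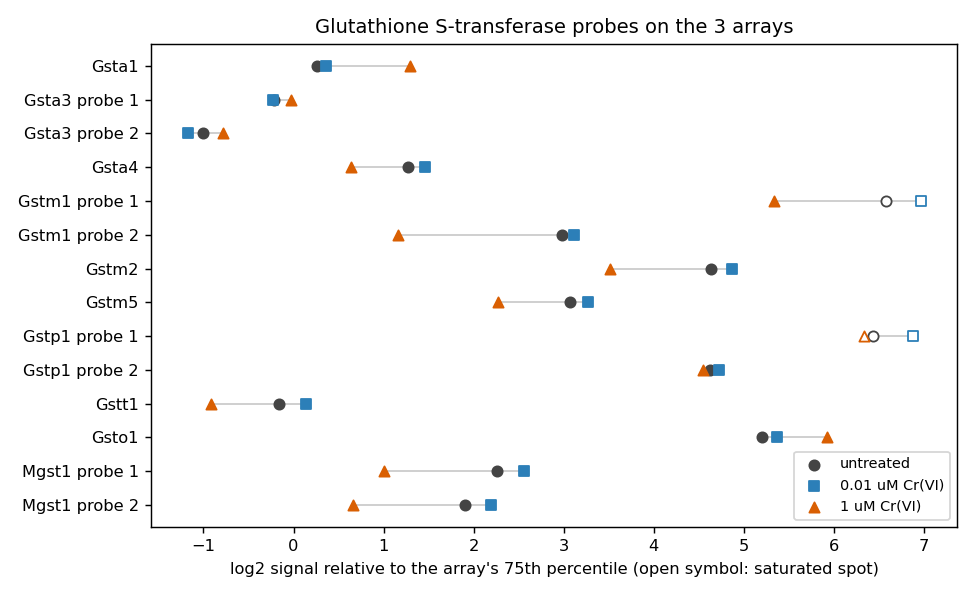
Level of each glutathione S-transferase probe (log2 signal relative to the 75th percentile of its array) on the untreated array (circles), at 0.01 uM (squares) and at 1 uM Cr(VI) (triangles), 1 array each, with open symbols for saturated spots. The 1 uM triangle lies furthest left for 10 of 14 probes, including all mu and microsomal ones (Gstm2 at 3.51 against 4.63 untreated). Gsta4, Gstt1 and both Gstp1 probes are the others, with the first Gstp1 probe saturated throughout. It lies furthest right for Gsta1 (1.30 against 0.26), Gsto1 (5.92 against 5.21) and, by less, both Gsta3 probes.

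The alpha class enzymes act on lipid peroxidation products and organic peroxides. For Gsta1, an alpha class transferase, the level was 0.26 untreated, 0.36 at 0.01 uM and 1.30 at 1 uM. The 1 uM array was the high one, 2.06-fold above untreated (log2 difference 1.04, SE 0.21), and the 0.01 uM value lay within the SE of untreated (0.10, SE 0.21). The spot was dim to moderate in brightness, with processed signals of 832, 661 and 1849 in the same order. The probe lies at chr9:78083844-78087325 (mm9, + strand). Its 60 bases are placed over 3482 genomic bases, so it crosses at least 1 splice junction. The array's annotation also lists transcripts of Gsta2 and Gm10639 for it, and the value cannot be assigned to Gsta1 alone.

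The probe named Gsta2, at chr9:78181644-78181703 (mm9, - strand), shares an end-to-start overlap of 28 bases with that of Gsta1, and both are shown because the overlap bears on which copy each one reads. Capitals mark the shared stretch, in which 1 base differs, T8A (the Gsta1 base first, counted from the first capital).
Gsta1: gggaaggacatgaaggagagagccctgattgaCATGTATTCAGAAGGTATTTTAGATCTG
Gsta2: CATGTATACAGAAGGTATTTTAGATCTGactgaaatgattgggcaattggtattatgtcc
The Gsta2 probe had levels of -1.22 untreated, -1.17 at 0.01 uM and -0.32 at 1 uM. Its difference at 1 uM was 0.90, short of 2-fold, and at 0.01 uM it was 0.04. Both probes were thus highest on the 1 uM array, and these probes give no separate reading of the 2 genes.

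Gsta3 encodes an alpha class enzyme with activity on aflatoxin epoxide in mouse liver. Its first probe (chr1:21255189-21255248, mm9, + strand) had levels of -0.22 untreated, -0.22 at 0.01 uM and -0.03 at 1 uM. The second (chr1:21255092-21255151) had levels of -1.00, -1.17 and -0.78 in the same order. The differences at 1 uM, 0.19 (SE 0.21) and 0.22 (SE 0.24), were within 1 SE of 0, and the probes lay 0.03 apart. At 0.01 uM the differences were -0.01 and -0.17, also within 1 SE, and their sign changed with the scaling.

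Gsta4, an enzyme with high activity on 4-hydroxynonenal and related alkenals, differed from the other alpha genes. The array carries its probe (chr9:78046172-78047344, mm9, over 1173 genomic bases) in 10 spots, of which 0 were flagged as outliers untreated and 3 on each treated array. Over the 10 spots of the untreated array the lowest, median and highest levels were 1.04, 1.30 and 1.38. Over 7 spots at 0.01 uM they were 1.42, 1.45 and 1.51, and over 7 spots at 1 uM they were 0.59, 0.64 and 0.69. These ranges leave out the flagged spots, all of them on the treated arrays, and ranges with the flagged spots kept were not computed. How far apart such ranges lay for other probes printed repeatedly was not counted, so their distance is no result about Gsta4. Repeat spots share 1 RNA sample and are no replicates of a treatment. From the means of 1.27, 1.45 and 0.64, Gsta4 was 1.55-fold lower at 1 uM (-0.64, SE 0.21) and differed by 0.18 (SE 0.21) at 0.01 uM. This SE comes from the median error of single spots, was not lowered for averaging, and is not the error of these means. The 1 uM difference lay between -0.55 and -0.64 under 8 of 9 settings and was 0.04 with spike-in scaling, which adds the same 0.68 to every probe.

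The mu class held the largest differences among these genes. Mu enzymes conjugate aryl epoxides and quinones, and the mouse genes lie side by side on chromosome 3. Gstm1, the best studied of them in mouse liver, was measured by 2 probes. The first (chr3:107815180-107815239, mm9, - strand) was saturated on the untreated array (6.58) and at 0.01 uM (6.96), and read 5.33 at 1 uM. The 1 uM array was therefore at least 2.37-fold lower than untreated (-1.25, SE 0.20), and no fold can be given at 0.01 uM. The second probe (chr3:107815564-107815623) was unsaturated, with levels of 2.98 untreated, 3.11 at 0.01 uM and 1.16 at 1 uM. It gave 3.52-fold lower at 1 uM (-1.82, SE 0.21) and 0.13 (SE 0.20) at 0.01 uM. The probes lay 0.57 apart at 1 uM, where the first gives only a bound.

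Gstm2, a mu transferase, had levels of 4.63 untreated, 4.86 at 0.01 uM and 3.51 at 1 uM (chr3:107784622-107784681, mm9, - strand). It was 2.17-fold lower at 1 uM (-1.12, SE 0.20) and differed by 0.23 (SE 0.20) at 0.01 uM. The 1 uM difference fell short of 2-fold with loess (-0.95), quantile normalization (-0.97) and spike-ins (-0.44). Gstm5 is a mu member known for high expression in brain and testis. Its levels were 3.06, 3.27 and 2.27 in the same order, so that 1 uM was again the low array, 1.74-fold below untreated (-0.80, SE 0.20) and short of 2-fold. Its 0.01 uM difference was 0.21 (SE 0.20). The Gstm5 probe is shown because it stands at the other end of the detected mu genes from Gstm1 and lies on the opposite strand, at chr3:107701101-107701160 (mm9, + strand), and no capitals are used.
Gstm5: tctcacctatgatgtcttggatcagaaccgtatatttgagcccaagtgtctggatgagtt

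Along the cluster, measured from the Gstm5 probe, the Gstm3 probe lay at 65.6 kb, Gstm2 at 83.5 kb and Gstm1 at 114.1 and 114.5 kb. Gstm3, a mu gene outside the 10, had levels of 5.11 untreated, 5.30 at 0.01 uM and 3.28 at 1 uM, which is 3.55-fold lower at 1 uM (-1.83). The probes of Gstm7 (28.1 and 28.5 kb), Gstm6 (42.9 kb) and Gstm4 (142.7 kb) were not well above background on any array and gave no difference. The detected genes Gstm5, Gstm3, Gstm2 and Gstm1 were each lower at 1 uM than untreated, and the undetected genes lay between and beside them. With spike-in scaling these differences stayed below 0, at -0.57 and -1.14 for Gstm1, -0.44 for Gstm2, -0.12 for Gstm5 and -1.15 for Gstm3. Mu transcripts are alike in sequence, and how far the probes separate them was not tested beyond the array's own transcript lists, which name no second RefSeq gene for these probes.

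**Figure D2:**
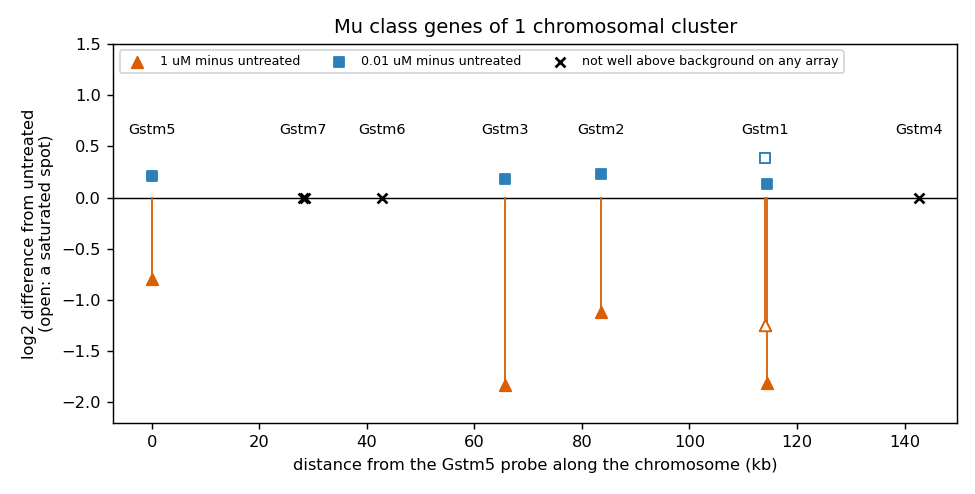
Log2 difference from untreated at 1 uM (triangles) and 0.01 uM (squares) for each mu class probe against its distance from the Gstm5 probe along chromosome 3 (kb), with crosses for probes not well above background on any array and open symbols where a spot was saturated. At 1 uM the detected probes lie between -0.80 (Gstm5) and -1.83 (Gstm3), and 4 of the squares lie between 0.13 and 0.23, with the saturated first probe of Gstm1 at 0.39 and at -0.01 under quantile normalization.

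Gstp1, the pi class enzyme, is a major transferase of many cultured and transformed cells. The pi pair of probes is printed because only 1 of them can show a difference, and no capitals are used.
Gstp1 probe 1: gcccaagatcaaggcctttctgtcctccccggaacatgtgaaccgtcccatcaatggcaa
Gstp1 probe 2: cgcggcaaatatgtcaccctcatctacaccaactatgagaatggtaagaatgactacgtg
The first (chr19:4035486-4035545, mm9, - strand) was saturated on all 3 arrays, with processed signals of 60017 untreated, 60749 at 0.01 uM and 60708 at 1 uM, and its list of transcripts includes the near-identical copy Gstp2. It carries no measure of difference. The second, placed over 816 genomic bases at chr19:4035908-4036723, read 4.63 untreated, 4.72 at 0.01 uM and 4.55 at 1 uM. Its differences were -0.08 (SE 0.20) at 1 uM and 0.10 (SE 0.20) at 0.01 uM, both within 1 SE of 0. The sign at 1 uM depended on the scaling (0.09 with loess and 0.60 with spike-ins), as did that at 0.01 uM (-0.03 with loess).

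Gstt1, a theta class enzyme that acts on small halogenated compounds, had levels of -0.17 untreated, 0.14 at 0.01 uM and -0.91 at 1 uM (chr10:75249693-75256857, mm9, - strand, over 7165 genomic bases). The low array was 1 uM, 1.68-fold below untreated (-0.75, SE 0.23) and short of 2-fold, or -0.07 with spike-in scaling. At 0.01 uM the difference was 0.31 (SE 0.22).

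Gsto1 is an omega class enzyme that reduces dehydroascorbate and methylated arsenic species. Its levels of 5.21 untreated, 5.37 at 0.01 uM and 5.92 at 1 uM (chr19:47939128-47939187, mm9, + strand) made 1 uM the high array, as for Gsta1. The difference was 0.71 (SE 0.20), or 1.64-fold, and at 0.01 uM it was 0.17 (SE 0.20). It remained short of 2-fold with loess (0.91) and quantile normalization (0.98), and was 1.39 with spike-in scaling.

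Mgst1, the microsomal transferase of the endoplasmic reticulum and outer mitochondrial membrane, gave the closest pair of probes. The first probe is printed as the sequence behind that reading, with no capitals, and lies at chr6:138104741-138104800 (mm9, + strand).
Mgst1 probe 1: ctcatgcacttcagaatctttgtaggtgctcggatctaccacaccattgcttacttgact
It read 2.26 untreated, 2.55 at 0.01 uM and 1.01 at 1 uM. The second probe, at chr6:138104944-138105003, read 1.91, 2.19 and 0.66 in the same order. Both were 2.38-fold lower at 1 uM (-1.25, SE 0.21), and their differences were 0.002 apart. At 0.01 uM the differences were 0.29 (SE 0.21) and 0.28 (SE 0.21). With spike-in scaling the 1 uM differences were -0.58 and -0.57, under 2-fold.

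**Figure D3:**
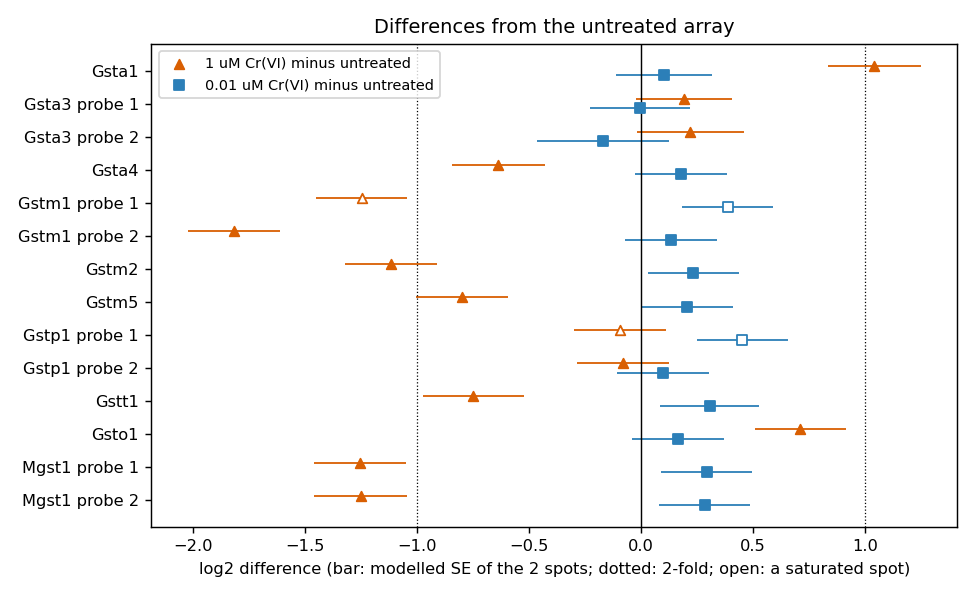
Log2 difference from the untreated array of each glutathione S-transferase probe at 1 uM (triangles) and 0.01 uM Cr(VI) (squares), 1 array each. Bars are the modelled technical SE, dotted lines mark 2-fold and open symbols rest on a saturated spot. The 1 uM values reach from -1.82 (Gstm1 probe 2) to 1.04 (Gsta1), whereas the measured 0.01 uM values stay between -0.17 (a Gsta3 probe whose sign changes with the scaling) and 0.31 (Gstt1).

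The zero line depended on how the arrays were scaled. Subtracting the 75th percentile put the median difference of all probes detected on the 3 arrays at -0.07 for 1 uM and 0.05 for 0.01 uM, while scaling on 5 spike-in probes put it at 0.60 and 0.35. The median of the 12 measured member probes at 1 uM was -0.69 with percentile scaling and -0.02 with spike-ins, and its difference from the median of all detected probes was -0.62 in both cases, since spike-in scaling shifts every probe by 0.68. Above 0 at 1 uM were 4 of the 12 with the percentile, 5 with loess and 6 with spike-ins, and 2 of the 12 (Gsta4 and the second Gstp1 probe) had both signs among the 9 settings tried. At least 2-fold with spike-ins were Gsta1 and Gsto1 (higher) and the second Gstm1 probe (lower). Of all probes at least 2-fold apart at 1 uM, 53.4% were higher with the percentile, 63.8% with loess, 95.2% with spike-ins and 38.6% with normexp background correction.

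**Figure D4:**
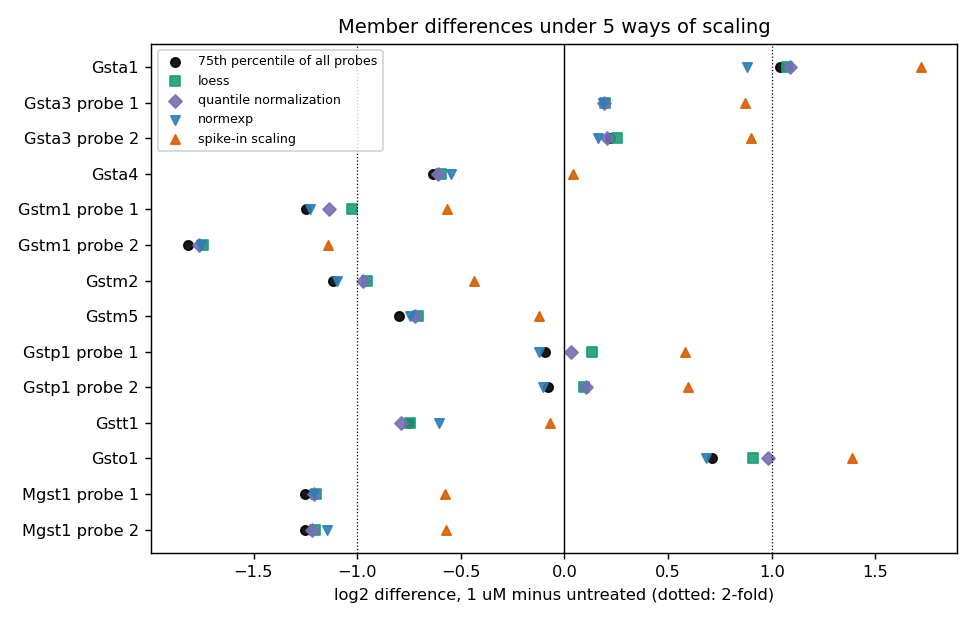
Log2 difference of each probe, 1 uM minus untreated, under the 75th percentile (circles), loess (squares), quantile normalization (diamonds), normexp (inverted triangles) and spike-in scaling (triangles), with dotted lines at 2-fold. Spike-in values lie to the right of the others for every probe and change the sign of Gsta4 (-0.64 to 0.04) and of both Gstp1 probes (-0.08 to 0.60 for probe 2), while Gstm1, Gstm2, Gstm5, Gstt1 and Mgst1 stay below 0.

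At 0.01 uM, 0 of 14 probes were at least 2-fold or even 1.5-fold from untreated, with 2 saturated on both arrays and counted as not apart. Of all 17258 probes, 0.296% passed 2-fold upward and 0.162% downward, and 2.2% passed 1.5-fold in either direction, so a count of 0 among 14 is near the background. Of the 12 measured, 10 lay above 0 (8 with loess, 12 with spike-ins), and their median was 0.17, against 0.05 over all probes, of which 62.9% were above 0. Their differences ran from -0.17 for the second Gsta3 probe to 0.31 for Gstt1. Of the 12, 0 lay more than 2 SE from 0, a share not computed for all probes. The signs of 4 changed with the scaling: both of Gsta3, the second of Gstp1 and that of Gsto1. At 0.01 uM the split of all probes at least 2-fold apart was 64.6% higher with the percentile, 74.7% with quantile normalization and 95.3% with spike-ins.

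Comparing the 2 doses directly, the 1 uM array exceeded the 0.01 uM array by 2-fold or more for 0 of 14 probes and fell below it by as much for 7, against 5.12% and 6.31% of 17357 probes. This comparison uses the same 1 uM array as the one above. The 7 were both Gstm1 probes (at least 3.10-fold, and 3.86-fold), Gstm2 (2.55-fold), Gstm5 (2.01-fold), Gstt1 (2.08-fold) and both Mgst1 probes (2.92- and 2.90-fold). Gsta1 was 1.92-fold higher at 1 uM than at 0.01 uM (0.94, SE 0.21). Here the all-probe median itself was -0.12, the member median was -0.91, and of all probes at least 2-fold apart 44.8% were higher with the percentile, 58.2% with the percentile of detected probes, 57.9% with loess and 80.0% with spike-ins. Several of these lay close to the 2-fold line. Gstm5 fell short of it with the percentile of detected probes (-0.88), their median (-0.92), quantile normalization (-0.84), loess (-0.84), normexp (-0.91) and spike-ins (-0.63). Gstt1 fell short with the percentile of detected probes (-0.93), their median (-0.97), normexp (-0.87) and spike-ins (-0.68), and Gstm2 with spike-ins (-0.97). Gsta1 passed it upward with the percentile of detected probes (1.06), their median (1.02) and spike-ins (1.31).

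**Figure D5:**
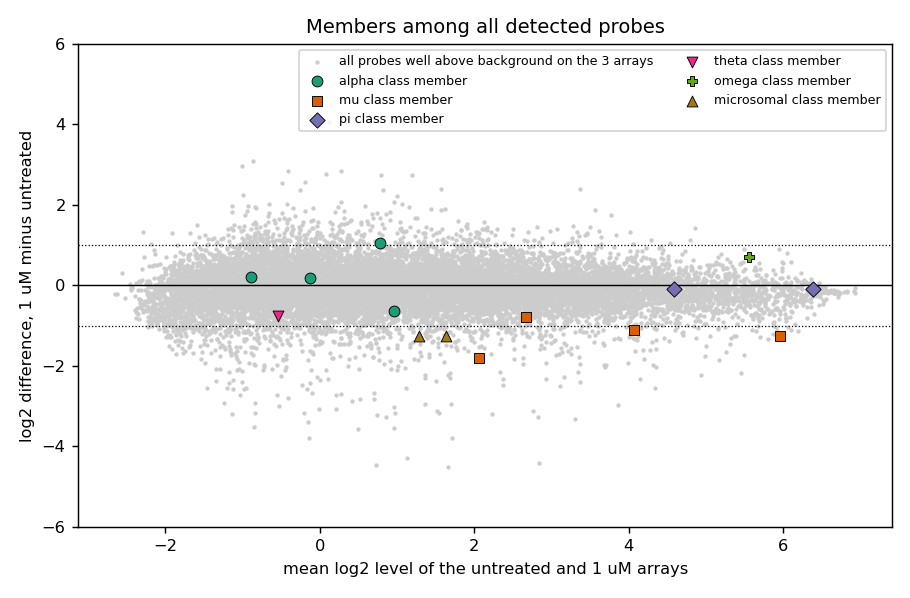
Log2 difference (1 uM minus untreated) against mean log2 level for all probes well above background on the 3 arrays (grey) and the glutathione S-transferase probes by class (coloured), with dotted lines at 2-fold. The mu class squares and microsomal triangles lie between -0.80 and -1.82 and the Gsta1 circle at 1.04. The mu square of the first Gstm1 probe (-1.25) was saturated on the untreated array, so its fold is a lower bound. The rightmost pi diamond (-0.09) is saturated on both arrays, and both pi diamonds change sign with scaling.

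The wider family of transferases and related membrane enzymes had 19 listed genes on the array. Of 11 compared at 1 uM, 0 passed 2-fold upward and 2 downward, against 5.67% and 4.86% of all genes, with a median of -0.01 over those measured against -0.03 over all genes. The lower genes were Gstm3, described above, and Gstt3, a theta gene next to Gstt1. Gstt3 read -0.21 untreated, 0.09 at 0.01 uM and -3.82 at 1 uM, where it was not well above background, so it was at least 6.05-fold lower. Gstt1 was 1.68-fold lower on the same pair of arrays. Gsto2, the second omega gene, read 2.56, 2.68 and 2.79, and Mgst3, a microsomal enzyme, 1.62, 1.74 and 0.88. Their differences at 1 uM, 0.23 and -0.74, were under 2-fold. The second detected probe of Mgst3 gave -0.79. At 0.01 uM, 0 of 11 family genes were 2-fold apart, against 0.436% of all genes in either direction.

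Of 48 genes listed for the glutathione pathway, 38 could be compared at 1 uM. Among them 3 were at least 2-fold higher and 1 lower, close in share to the 5.67% and 4.86% of all genes, and the median was 0.14. Slc7a11, the cystine transporter subunit that supplies glutathione synthesis, read -1.70 untreated, -2.45 at 0.01 uM (not well above background) and 0.33 at 1 uM, 4.08-fold higher. Its second probe was 2.31-fold higher at 1 uM. Its remaining probes, not well above background untreated, were at least 3.05-fold and at least 1.47-fold higher. Chac1, which degrades glutathione, read 4.22, 4.23 and 5.36, 2.20-fold higher at 1 uM. Abcc4, an export pump for conjugates, read 0.02, -0.01 and 1.02, 2.01-fold higher. Dpep1, a dipeptidase of conjugate breakdown, read -0.13, 0.45 and -1.18, 2.07-fold lower. Abcc4 and Dpep1 lay close to the 2-fold line. Abcc4 missed it with normexp (0.86), and Dpep1 with normexp (-0.76), the percentile (-0.99) and median (-0.99) of detected probes and spike-ins (-0.37).

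By role, and against 5.67% of all genes higher and 4.86% lower, 2 of 10 compared genes in the list for synthesis and supply passed 2-fold upward (median 0.33). They were Slc7a11 and Chac1, of which Chac1 breaks glutathione down. That list thus mixes supply with breakdown, and its median, the value of Chac2, is no measure of synthesis alone. Upward also passed 0 of 9 in reduction and peroxide use (0.01), 1 of 6 in conjugate export and breakdown (0.08, with 1 lower), 0 of 2 in the glyoxalase pair (-0.19), 0 of 4 in NADPH supply (0.08) and 0 of 7 in NRF2 control and markers (0.30). The 3 brightest pathway genes were all under 2-fold at 1 uM: Slc3a2, the partner chain of Slc7a11 (6.41 untreated, 6.72 at 0.01 uM and 6.01 at 1 uM), and the peroxidases Gpx4 (6.02, 6.26 and 5.29) and Gpx1 (5.86, 6.11 and 5.38). At 0.01 uM 0 of 37 compared pathway genes were 2-fold apart, and the median was 0.10 against 0.06 over all genes.

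Promoter sequence was searched for the core of the antioxidant response element, TGACNNNGC, on both strands, in RefSeq windows from 250 bases before to 50 after the gene start (GRCm38.p6). Of the 10 genes, 9 were matched to a window, and 3 of the 9 (33.3%) held the motif, against 14.0% of all 27025 genes with a window. Per window the figures were 3 of 11 (27.3%) and 12.4% of 32851. Of 18 other family genes 1 (5.56%) held it. The 3 matches are shown with capitals for the motif, since they are the promoters of a gene within 1 SE of 0, one 1.74-fold lower and one 2.38-fold lower at 1 uM. The printed stretches lie at chr1:21240449-21240487 for Gsta3, chr3:107895797-107895835 for Gstm5 and chr6:138140456-138140494 for Mgst1 (GRCm38.p6, + strand). The motifs within them start 121, 42 and 56 bases before the gene start.
Gsta3: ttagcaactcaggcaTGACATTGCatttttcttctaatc
Gstm5: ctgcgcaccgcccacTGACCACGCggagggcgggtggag
Mgst1: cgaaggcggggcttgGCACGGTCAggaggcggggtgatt
The Mgst1 match is on the reverse strand. Neither Gsta1 nor Gsto1, the members furthest above untreated at 1 uM, had these letters in the window, which says nothing about binding elsewhere.

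For Gsta1, Gstm2 and Mgst1, whose brightest probe was unsaturated and at least 2-fold apart at 1 uM, the genes nearest in their pair of differences (1 uM and 0.01 uM, each minus untreated) were found by Euclidean distance over about 9526 candidates detected on all 3 arrays. Nearest to Gsta1 were Ccl25, 1110008P14Rik and Scx, with 118 genes within a distance of 0.2. Nearest to Gstm2 were Adm, H2aw and C1qtnf5 (167 within 0.2), and to Mgst1 Casp12, H2ac18 and Acat3 (91). Likeness rests on 2 differences that share the untreated array, and many genes lay as near.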

How the data were processed

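RNA from 3 groups of C3H10T1/2 cells was labelled with Cy3 and hybridised to 1-colour Agilent mouse arrays, all on 1 slide. Per the file headers, the authors extracted spot intensity with Agilent Feature Extraction 10.5.1.1, with spatial and multiplicative detrending. The deposited value table holds log2 values that differ from the log2 processed signal by 1 constant per array (9.45 untreated, 9.01 at 0.01 uM and 9.56 at 1 uM, within 0.01 for at least 99.8% of probes), with column medians of -4.23, -3.96 and -4.03. The table thus has the same scale, centring and direction as the values used here.

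Outlier-flagged and control spots were left out, spots of a probe were averaged, and the 75th percentile of all probes was subtracted from log2 processed signal. A comparison required 1 or both arrays to be well above background. If 1 was not, the fold is a bound taken from the larger of 2 values on that array, its dim signal or the lowest signal of any detected probe. Genes outside the 10 were read from their brightest probe and named through RefSeq. Named were all 10 members, genes of the 2 lists at least 2-fold apart from untreated or among their 3 brightest detected, and the 3 nearest genes per member past 2-fold (not given for Gstm1, whose brightest probe was saturated). Gsta2 and the undetected mu genes were named beyond this rule, after their values were seen. The members and lists were chosen with earlier results of these data known. Coordinates of probes are mm9, as in the array files, without an exon annotation.

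Alternatives were 2 percentile or median scalings on detected probes, quantile normalization, loess (span 0.4), 5 unsaturated spike-in probes, normexp (offset 50, limma 3.58.1, R 4.3.3), filters, kept outliers, the authors' table and 1.5- and 3-fold thresholds. Other steps used Python 3.11.15, numpy 2.4.6, statsmodels 0.14.6 and pandas 2.3.3. Counts were tested first on simulated data. A planned comparison of protein sequences was not run. Precision is limited by having 1 array a group.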

Additional observations from a re-analysis of the deposited data

Results flagged for a closer look

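For 5 probes 1 dose was above and the other below the untreated value, each by more than its modelled technical SE. As 1 uM minus 0.01 uM these were Gstm2 at -1.35, Gstm5 at -1.00, Gstt1 at -1.06 and the Mgst1 probes at -1.55 and -1.53. Both doses are set against the same untreated array, with 1 array a dose, and the difference was not tested. At 0.01 uM each of the 5 values was within 2 SE of untreated. With loess, the 0.01 uM differences of Gstm2 (0.13) and Gstm5 (0.14) were smaller than their SE (0.20). The share of all probes with such opposite differences was not computed. Over all probes measured, 62.9% were above 0 at 0.01 uM and 47.3% at 1 uM.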

How the results depend on the processing

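At 1 uM against untreated, the count of member probes at least 2-fold apart was 6. It was 5 or 6 under the other scalings except spike-in scaling, where it was 3. There its balance turned from 1 higher and 5 lower to 2 higher and 1 lower. The filters could not change it, since all 14 probes were well above background on every array. Naming through RefSeq gave the same 14 probes, and the authors' table holds nearly the same values up to a constant, so neither is an independent check. The count was 10 at 1.5-fold and 1 at 3-fold. Gsta1 missed 2-fold with normexp (0.88), and Gstm2 with loess and quantile normalization. Between the doses the 7 probes became 2 at 3-fold and ranged from 5 to 9 otherwise. At 0.01 uM the count was 0 under every alternative run. For the other family genes, the 2 at 1 uM (0 higher) became 5 with spike-ins (3 higher and 2 lower) and 1 where both arrays had to be above background, and the 0 at 0.01 uM became 1 with no filter. For pathway genes, the 4 at 1 uM (3 higher and 1 lower) became 14 with spike-ins (all higher), 2 with normexp (both higher) and 7 with no filter (3 higher and 4 lower), and the 0 at 0.01 uM became 2 with no filter. The shift that spike-in scaling gives all probes and the dim probes added by no filter belong to those alternatives, and other causes were not tested. Of 398 values of single named genes under the alternatives, 49 moved. The 398 include settings that could not move a member probe, such as the filters. No paired analysis was possible because each group has 1 array, and leaving out a replicate was not possible for the same reason. Saturation limits both first probes of Gstm1 and Gstp1, and dim signal limits Gstt3.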
